A study of Mus musculus with 2 samples.

Results

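Matrix metalloproteinases are secreted or membrane-bound zinc enzymes that cut collagens, elastin and other proteins of the extracellular matrix. The genes described here are 10 listed by symbol: the metalloproteinase genes Mmp8, Mmp9, Mmp12, Mmp13, Mmp14 and Mmp19, the tissue inhibitors Timp1 and Timp2, the membrane protease Adam8 and the matrix glycoprotein Spp1, out of 22180 genes that a single-symbol probe set names. The rule names genes and applies no threshold on their values. The members and the other lists below were, however, drawn up when earlier results of these data were known. Their counts beside shares of all genes are thus descriptive only. Of the 10, 9 had a probe set named by a single symbol, each of them exactly 1, and Spp1, which encodes osteopontin, was not analysed here. On both arrays, 8 genes exceeded the detection floor defined below, and Mmp9 was under it on each.

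Both arrays carried RNA of inflammatory monocytes (Ly6C-high) isolated by flow cytometry from colon lamina propria of C57BL/6 mice, either wild type (WT) or lacking Nlrp6 (Nlrp6-/-), a receptor of the inflammasome family. All mice had been given azoxymethane (AOM, a colon carcinogen; 10 mg/kg), followed over 5 days beginning on day 5 by dextran sodium sulfate (DSS) at 2%, an agent toxic to the colon epithelium, and tissue was taken on day 10. The gate required CD11b, and it removed CD3-positive and Ly6G-positive events. Nlrp6-/- is, by its notation, a deletion in the whole animal, not one limited to monocytes. The labels give neither the age nor the number of mice behind each RNA. There was 1 array per genotype, so no difference below has a replicate error or a p-value, and each describes these 2 RNAs. In bulk RNA, fewer cells of a type and less RNA per cell cannot be told apart.

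Metalloproteinases are made as inactive proenzymes whose catalytic zinc is blocked until the propeptide is cut, and TIMP proteins then bind the active site and stop the enzyme. In inflamed gut, monocytes, macrophages, neutrophils and fibroblasts are known sources, and the balance of enzyme to inhibitor is a usual way to describe matrix turnover. Adam8 is a related zinc enzyme of leukocytes that cuts proteins off the cell surface. Osteopontin is a cytokine-like matrix protein that metalloproteinases cut and that integrins and CD44 bind.

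The inhibitor Timp1 was the member that stood furthest apart. Its level was 6.60 on the WT array and 7.68 on the Nlrp6-/- array, on the log2 scale of the robust multiarray average (RMA) that the authors deposited. The difference of 1.08 is 2.11-fold higher in Nlrp6-/-. Levels of different genes also reflect their probes, so levels of single genes are compared here only between the arrays. The summed levels of marker lists below add different genes, so the genes with the highest levels weigh most in them. Among the 9525 measured genes, meaning those over the floor of 1 array or both, 1.21% had a higher difference. The other 7 measured members were all slightly lower in Nlrp6-/-, by 0.07 to 0.45 on the same scale. With a threshold of 1.5-fold, 1 of the 8 measured members was higher, against 6.22% of all genes, and 0 were lower, against 3.06%. With a threshold of 2-fold the counts were again 1 and 0, against 1.62% higher and 0.325% lower among all genes.

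The floor was the 95th percentile of olfactory and vomeronasal receptor probe sets, genes that colon monocytes are not known to use. It lay at 3.26 in WT and 3.23 in Nlrp6-/-. The differences of those silent receptors had an SD of 0.19, which is a technical spread and not the spread between mice. Where a gene had several probe sets over both floors (422 genes), these disagreed by a median of 0.31 and by 0.79 at the 90th percentile. The lower levels of Mmp8, Mmp12, Mmp14, Mmp19 and Timp2 were within that median, those of Mmp13 and Adam8 were past it but within the 90th percentile, and Timp1 was past both. Nlrp6 itself was under both floors (WT 2.32, Nlrp6-/- 2.67), so it gave no check of the genotype labels.

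**Figure D1:**
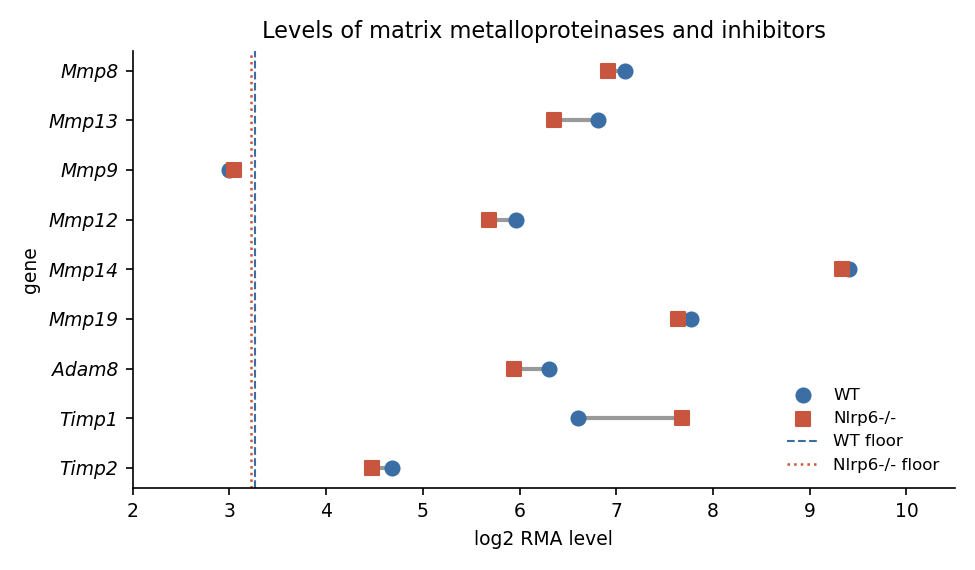
Log2 RMA levels of the 9 members with a probe set, 1 array per genotype: circles are WT, squares are Nlrp6-/-, and the vertical lines are the detection floors at 3.26 and 3.23. Timp1 lies to the right in Nlrp6-/- at 7.68, Mmp9 lies below both floors, and the other 7 genes lie slightly to the left in Nlrp6-/-.

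The collagenases Mmp8 and Mmp13 cut the triple helix of fibrillar collagen. Mmp13 had a level of 6.81 in WT against 6.36 in Nlrp6-/-, which is -0.45 or 1.37-fold lower. It had the lowest difference of the measured members, and 6.59% of all measured genes had a lower difference. Mmp8, first known as the collagenase of neutrophil granules, had a WT level of 7.09 and an Nlrp6-/- level of 6.92, which differ by -0.17. Of all measured genes, 56.4% lay at least that far from 0, so the Mmp8 levels were close on these arrays.

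Mmp12, the macrophage elastase, was at 5.96 in WT and 5.68 in Nlrp6-/-. Its difference of -0.28 is 1.22-fold lower, and 35.9% of measured genes lay at least as far from 0. Mmp9, the gelatinase of neutrophils and activated macrophages, was at 2.99 in WT and 3.05 in Nlrp6-/-. Both values were under the floors, so Mmp9 was not above background on either array and has no direction. Mmp19, which cuts basement membrane proteins, measured 7.78 in WT against 7.64 in Nlrp6-/-, which differ by -0.14.

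Mmp14 is anchored in the plasma membrane, where together with Timp2 it activates the gelatinase Mmp2. Mmp14 was at 9.41 in WT and 9.33 in Nlrp6-/-, the smallest difference among the 8 measured members at -0.07. Timp2 measured 4.68 in WT against 4.47 in Nlrp6-/-, which is -0.20 and in the direction opposite to Timp1. Mmp2, which is no member, measured 4.28 in WT against 5.08 in Nlrp6-/-, higher by 0.80. Mmp14 and its partner Timp2 were thus close to their WT levels, while Mmp2 was 1.74-fold higher in the Nlrp6-/- RNA. The WT level of Mmp2 was low. It lay below the WT floor of 5.08 that the 99th percentile of the silent receptors gives, so this fold depends on the floor chosen.

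Adam8 measured 6.30 in WT against 5.94 in Nlrp6-/-, which is -0.36 or 1.28-fold lower. It was the second-lowest member after Mmp13, and 10.9% of measured genes had a lower difference. Mmp13 and Adam8 were the 2 members lower by 0.32 or more on the log2 scale, a looser threshold that 13.2% of all genes passed on the low side. On the high side Timp1 was the 1 member past it, where 16.9% of all genes passed.

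All 6 measured proteases, Adam8 and the metalloproteinases other than Mmp9, were lower in Nlrp6-/-, with a median difference of -0.22. Including Timp2, 7 of 8 measured members were lower by any amount, against 48.3% of all measured genes. Of the 7, Mmp14, Mmp19 and Mmp8 were within the SD of 0.19 of the silent receptor differences. The median over the 8 was -0.19, and over all measured genes it was 0.0039. These members share the 2 RNAs and are not replicates of the genotype. The level of Timp1 relative to Mmp13 within an array differed by 1.54 between the arrays, or 2.90-fold. Relative to Adam8 it differed by 1.44, to Mmp12 by 1.36 and to Mmp14 by 1.15. Most of each of these values is the difference of Timp1 itself, 1.08.

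**Figure D2:**
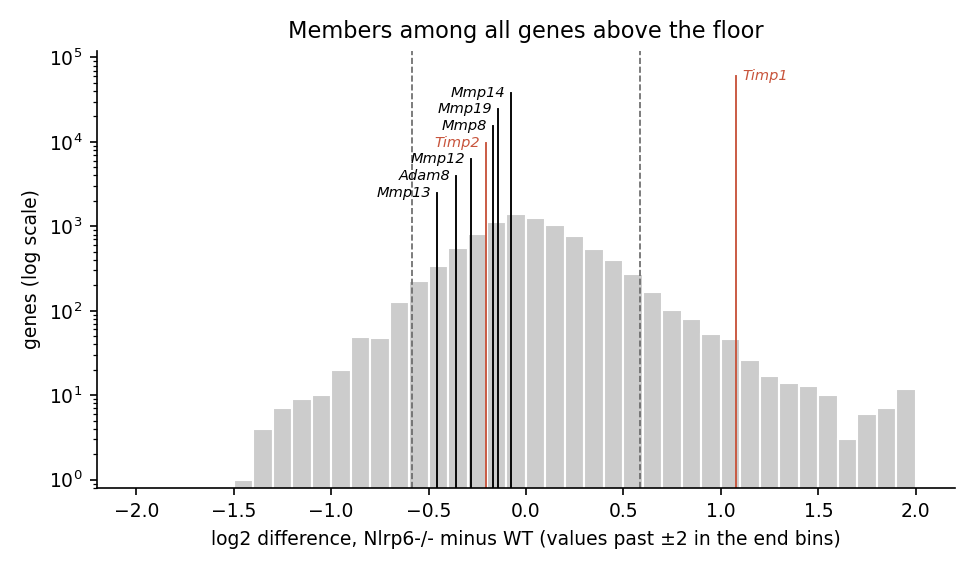
Histogram of the log2 difference, Nlrp6-/- minus WT, over the 9525 measured genes, with the number of genes on a log axis; vertical lines mark the 8 measured members, inhibitors in red and proteases in black, with heights that only separate the labels, and the dashed lines are 1.5-fold in each direction. Timp1 lies in the upper tail at 1.08, and the others lie between -0.45 and -0.07 in the body of the distribution.

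The 250 bases before the gene start are shown for Timp1, the member that was higher, and for Mmp13 and Mmp12, the lowest metalloproteinases. AP-1, a dimer of Fos and Jun proteins, is a known activator of many metalloproteinase genes. Capitals mark the letters TGANTCA, a form of the AP-1 site that reads the same on both strands. Mmp12 has 2 listed starts, and the window shown is the one that holds these letters. The sequences are RefSeq's for mouse build GRCm38.p6, on the plus strand of chrX:20869916-20870165 for Timp1, chr9:7272264-7272513 for Mmp13 and chr9:7347124-7347373 for the downstream of the 2 listed starts of Mmp12.
Timp1: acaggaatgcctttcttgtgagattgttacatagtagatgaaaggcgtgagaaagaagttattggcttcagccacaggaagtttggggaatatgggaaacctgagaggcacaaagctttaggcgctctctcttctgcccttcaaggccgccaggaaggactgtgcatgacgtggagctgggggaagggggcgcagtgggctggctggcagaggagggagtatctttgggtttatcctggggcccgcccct
Mmp13: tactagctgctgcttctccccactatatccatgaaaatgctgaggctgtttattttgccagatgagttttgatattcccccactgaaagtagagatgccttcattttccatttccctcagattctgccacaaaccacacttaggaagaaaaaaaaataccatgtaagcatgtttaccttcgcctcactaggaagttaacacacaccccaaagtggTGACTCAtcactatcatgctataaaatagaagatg
Mmp12: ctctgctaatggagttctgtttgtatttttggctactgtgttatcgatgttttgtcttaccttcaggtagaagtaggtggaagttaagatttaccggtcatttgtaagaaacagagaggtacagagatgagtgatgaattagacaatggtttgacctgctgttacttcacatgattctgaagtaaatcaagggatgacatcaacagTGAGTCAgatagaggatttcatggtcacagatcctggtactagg

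Promoters of 8 of the 10 members were matched, with 10 starts among them, and Mmp9 and Mmp19 were not matched. The AP-1 letters were found at 1 start each of Mmp13 and Mmp12. They began at position -35 of Mmp13 and at -44 of the downstream start of Mmp12. The window of the upstream Mmp12 start did not hold them. Of all 32851 starts in the table, 6.75% held the letters in the same window. In the windows of Mmp8, Mmp14, Timp1, Timp2, Adam8 and Spp1 these letters did not occur. A match describes the letters and is no evidence of binding. On the arrays, 8 of 11 measured AP-1, ETS and related factor genes were higher by any amount, with a median of 0.25. Among all 9525 measured genes, 4830 were higher by any amount. Jund, counted as higher at 0.40, had a second probe set over both floors that was lower, at -0.27. Jun, a subunit of AP-1, measured 6.03 in WT against 6.63 in Nlrp6-/- and was the 1 gene of that list past 1.5-fold. Both genes with the letters were lower in Nlrp6-/-. So were Mmp8, Mmp14, Timp2 and Adam8, whose windows lack the letters, while Timp1 lacks them and was higher. A relation of the letters to these levels was not tested.

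Mmp13, Mmp12 and Mmp8 belong to an uninterrupted run of 10 metalloproteinase genes on chromosome 9 in the RefSeq order. Of the 10 genes, 4 were above the floor: Mmp13, Mmp12, Mmp10 and Mmp8. Mmp10, stromelysin 2, was at 3.54 in WT and 4.21 in Nlrp6-/-, higher by 0.67, in the direction opposite to its measured neighbours. Mmp3, stromelysin 1, which lies between Mmp1b and Mmp1a in the run, was at 2.71 and 3.18, below both floors. The other 5, Mmp1b, Mmp1a, Mmp27, Mmp20 and Mmp7, were likewise below the floors. Of the 4 measured genes of the cluster, Mmp10 was thus higher in Nlrp6-/- and the others were lower.

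**Figure D3:**
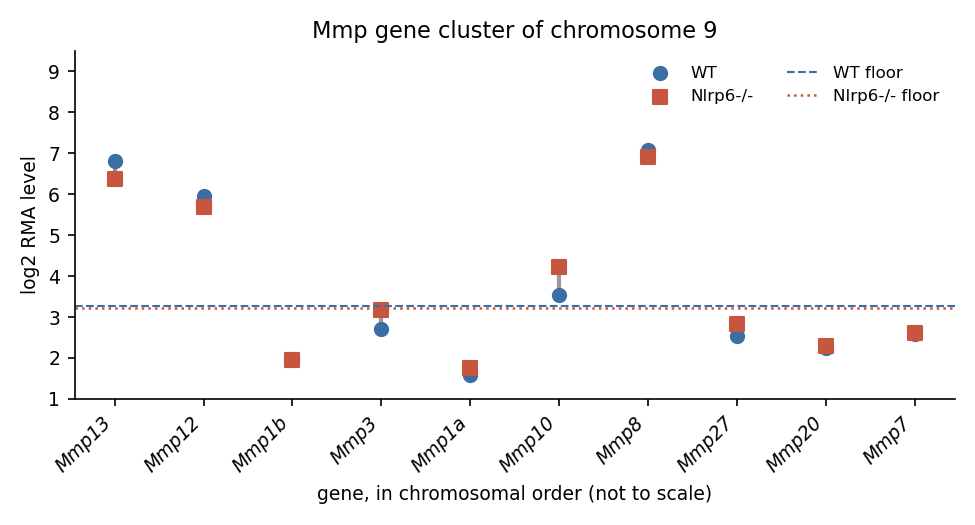
Log2 RMA levels of the 10 metalloproteinase genes of the chromosome 9 run, placed in chromosomal order and not to scale; circles are WT, squares are Nlrp6-/-, and horizontal lines are the floors. Mmp13, Mmp12 and Mmp8 are above the floors and lower in Nlrp6-/-, Mmp10 is above them and higher, and the other 6 are below.

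Among metalloproteinase and inhibitor genes that are not members, 18 of 19 listed had a probe set, and 6 were above the floor. Their median difference was 0.20, with 2 at least 1.5-fold higher, Mmp2 and Mmp10, and 0 lower. Mmp25, the membrane-anchored leukolysin of leukocytes, was at 5.77 in WT and 5.78 in Nlrp6-/-. Timp3, an inhibitor held in the matrix, was at 4.03 and 4.42, a difference of 0.39 that did not reach 1.5-fold. Of the 3 TIMP genes above the floor, Timp1 alone was past 1.5-fold.

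Adam8's relatives were divided. Of 12 other listed ADAM genes, 6 were measured, with 1 higher and 1 lower by 1.5-fold or more. Adam17, the enzyme that sheds TNF from the cell surface, measured 8.46 in WT against 7.84 in Nlrp6-/-, which is -0.62. Adamdec1, a soluble relative, was at 5.83 and 6.70, higher by 0.88. The median of the 6 was -0.14. Of 17 ADAMTS genes with a probe set, which encode secreted proteases of proteoglycans and procollagens, 4 were measured and 0 reached 1.5-fold, with Adamts1 at 0.45, Adamts7 at -0.36 and Adamts4 at a bound of 0.06.

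The genes that activate, bind or restrain metalloproteinases differed in both directions. Of 11 measured, 3 were at least 1.5-fold higher and 1 lower, with a median of 0.11. Plau, the urokinase that makes plasmin and so starts the activation of several proenzymes, measured 5.92 in WT against 5.09 in Nlrp6-/-, which is -0.83. Plat, the tissue-type activator of the same zymogen, was at 4.87 and 5.51, higher by 0.64. Plaur, the urokinase receptor, was at 6.74 and 6.53. Lcn2, which forms a complex with Mmp9, was at 6.90 and 7.77, higher by 0.87. Cd63, a tetraspanin that serves as a surface receptor of Timp1, was at 8.55 and 9.15, higher by 0.60 in the same direction as Timp1.

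Receptors of osteopontin were measured although Spp1 was not. Of the 9 listed, 8 were above the floor and 7 of these were lower by any amount, against 48.3% of all measured genes. Of the 7, all but Itgav and Itgb1 were within the SD of 0.19 of the silent receptor differences. The median of the 8 was -0.12. Itgav, at -0.45, had a second probe set that differed by 0.04. Itgb5, an integrin beta chain, measured 5.41 in WT against 6.09 in Nlrp6-/- and was the 1 gene of this list past 1.5-fold. Cathepsins, lysosomal proteases that can also degrade matrix, had 10 of 11 measured genes lower by any amount, against the same 48.3%. Ctsl at -0.11 and Ctsw at a bound of -0.04 were within that SD. The cathepsin median was -0.22, close to that of the member proteases. The 1 cathepsin past 1.5-fold was Ctsz, at 9.33 in WT and 8.71 in Nlrp6-/-.

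**Figure D4:**
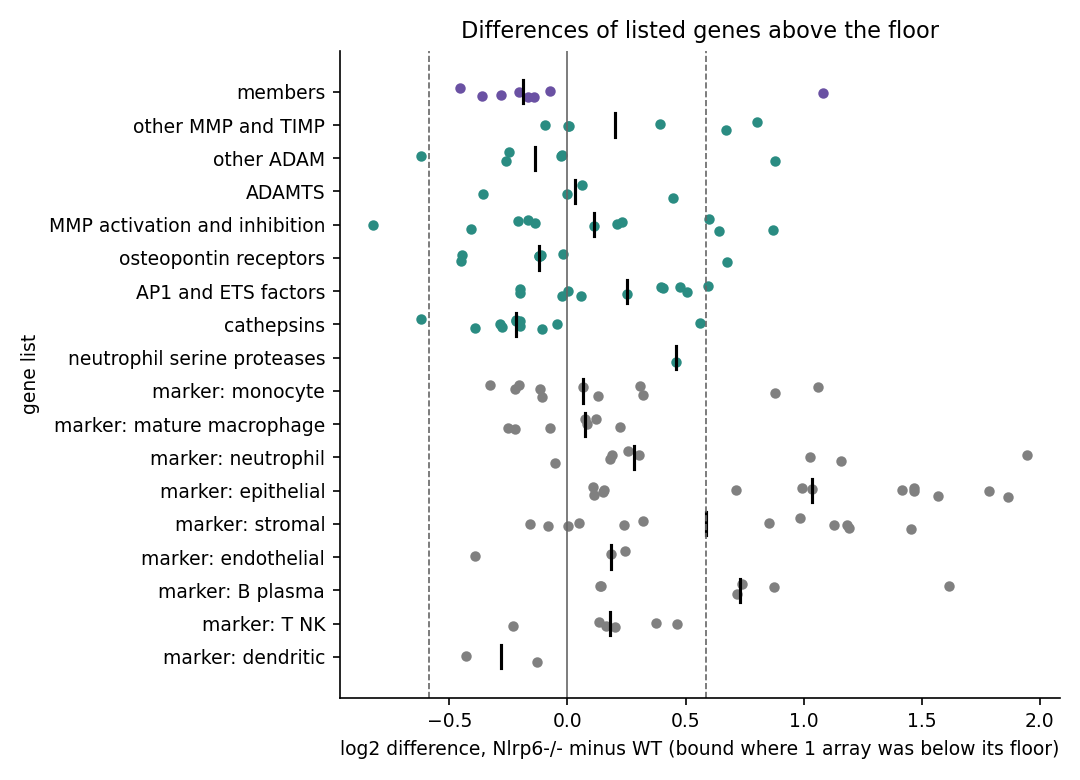
Log2 differences, Nlrp6-/- minus WT, of every measured gene of each list, one point per gene and one row per list, with black bars at the medians, dashed lines at 1.5-fold, members in purple, related lists in green and cell type markers in grey. The members lie left of 0 except Timp1 at 1.08, and the epithelial, stromal, B and plasma cell markers have their medians to the right, at 1.03, 0.59 and 0.73.

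Some markers of other cells were higher in Nlrp6-/-, as Timp1 was. Of 12 stromal markers, all measured, 6 passed 1.5-fold upward in Nlrp6-/- and 0 downward, with a median of 0.59. Their summed level on the linear scale was 714 in WT and 1384 in Nlrp6-/-. The matrix protein gene Mgp was at 7.43 and 8.88, Col1a2 at 6.07 and 7.26, and Lum at 3.82 and 5.00. Of the 6, Col1a2, Col6a1 and Bgn had a second probe set, of lower mean level, that differed less: by 0.22 against 1.19 for Col1a2, by 0.07 against 1.13 for Col6a1, and by 0.39 against 0.85 for Bgn. Pdgfra, a defining receptor of fibroblasts, was near the floor (3.31 and 3.23), and Pdgfrb was at 4.25 on both. Col1a1 differed by 0.05 and Acta2 by -0.16. Fibroblasts are known to make Timp1, Mmp2 and Timp3, and the part of stromal RNA in their higher levels was not tested.

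Epithelial markers were higher as well, 9 of 13 measured by at least 1.5-fold and 0 lower, with summed linear levels of 324 in WT and 749 in Nlrp6-/-. The leading genes were Lypd8 at a difference of 1.87, Muc13 at 1.79 and Lgals4 at 1.57. Tff3 at 0.15, Car1 at 0.15, Muc2 at 0.11 and Vil1 at a bound of 0.11 did not reach 1.5-fold. Here too the second probe sets of Cdh1 and Krt18 differed less, by 0.29 against 1.47 and by 0.33 against 1.42. Of 6 measured B and plasma cell markers 4 were at least 1.5-fold higher, with summed levels of 717 in WT and 1320 in Nlrp6-/-. Jchain, at 9.22 and 10.09, made up most of each sum. The largest differences were Mzb1 at 1.62, Jchain at 0.88 and Cd79a at 0.74. The part of epithelial, B or plasma cells in the Timp1 difference was not tested.

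Mmp8, Mmp9 and Lcn2 are products of neutrophil granules, so neutrophil markers were set beside them. Of 14 listed, 8 were measured, and 3 were at least 1.5-fold higher in Nlrp6-/-. These were Retnlg at a bound of 1.95, S100a8 at 1.16 and S100a9 at 1.03, of which S100a8 and S100a9 are also made by monocytes. The granule genes Camp, Ngp, Ltf and Mpo were below the floor on both arrays. Ly6g, the antigen used to remove neutrophils, was near the floor (WT 3.32, Nlrp6-/- 3.58), and Cxcr2 was at 3.07 and 3.57. The summed linear level of the measured markers was 709 in WT and 934 in Nlrp6-/-, and Csf3r and Il1r2 made up most of each sum. Of the neutrophil serine proteases, Elane and Ctsg were below both floors, and Prtn3 was at a bound of 0.46. Csf3r was at 8.25 in WT against 8.20 in Nlrp6-/-, Il1r2 differed by 0.19 and Cd177 by 0.18, and the median over the 8 was 0.28. The part of neutrophil RNA in the levels of Mmp8 and Lcn2 was not tested.

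Monocyte markers were above the floor on both arrays for 11 of 11 genes with a probe set, with a median difference of 0.07 and summed levels of 7250 in WT and 6921 in Nlrp6-/-. Ly6c2, which encodes the sorted antigen, was at 9.06 and 9.36. The largest differences were those of F13a1 at 1.06, Fcgr1 at 0.88 and Lyz2 at -0.33, and 2 of the 11 were at least 1.5-fold higher. Mature macrophage markers had a median of 0.07 over 7 measured genes, with 0 past 1.5-fold, and their largest differences were Adgre1 at -0.25, C1qb at 0.22 and C1qa at -0.22. For T and NK cells the median was 0.18 over 6 genes, led by Cd3d at 0.46, Cd8a at a bound of 0.38 and Cd3e at -0.23. Endothelial markers had 3 measured genes, Cdh5 at -0.39, Pecam1 at 0.24 and Kdr at 0.19. Dendritic markers had 2, Cd209a at -0.43 and Ccr7 at -0.13, while Flt3, Zbtb46 and Xcr1 were below both floors. A second probe set of Cd209a, of lower mean level, went the other way. It was at 2.97 in WT, below the floor, and at 3.58 in Nlrp6-/-.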

How the data were processed

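Sorted colon monocytes were measured on 2 Affymetrix Mouse Gene 2.1 ST arrays, 1 per genotype label. Per the labels' protocols, 10 ng of RNA was amplified and biotinylated, and the authors computed levels with the oligo package in R 2.15.1 as a robust multiarray average (RMA). RMA subtracts background, equalises the arrays' distributions and summarises probes, so a shift of all transcripts cannot be seen. The deposited values are log2 levels. The set of arrays normalized with each other is not stated in the labels, and the number of arrays limits the precision.

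Differences are Nlrp6-/- minus WT on the log2 scale. Of 41345 probe sets, 23521 had 1 symbol in the platform annotation, 1814 had several and 16010 had none. The probe set with the highest mean stood for a gene, which gave 22180 genes. Per array, the floor was set at the 95th percentile over 1400 olfactory and vomeronasal receptor probe sets, and a gene below it on 1 array was given as a bound against the floor or its own level, whichever was higher. With 1 array per genotype no test was run, and counts past 1.5-fold are set beside those of all genes. Alternatives were 3 further normalizations (median centring, quantile, loess), other floors, the mean of probe sets and other thresholds. The scripts (Python 3.11.15, statsmodels 0.14.6) were tested on simulated arrays. Promoter sequences and gene order are RefSeq's for GRCm38.p6. The members and gene lists were chosen with earlier results of these data known. For other named genes, the rule took from each related list every gene at least 1.5-fold apart, or otherwise up to 3, and from each marker list up to 3 with the largest differences, with Ly6g, Cxcr2, S100a8 and S100a9 added for neutrophils. Genes of the chromosome 9 cluster, Mmp25, Timp3 and Plaur, undetected neutrophil and dendritic markers, Csf3r, Il1r2, Cd177, Pdgfra, Pdgfrb, Ly6c2 and the genes with a second probe set were named after their values were seen. So were Col1a1, Acta2, Itgb1, Ctsl, Ctsw, Muc2, Tff3, Car1 and Vil1.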

Additional observations from a re-analysis of the deposited data

How the results depend on the processing

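The 3 further normalizations left the members' pattern in place. Under them Timp1 differed by 1.07 to 1.10 and remained the 1 member past 1.5-fold. The deposited levels were already normalized, with a median difference over all probe sets of -0.02. Median centring could thus shift each gene by that amount alone. The mean of probe sets could not move a member, since each had 1 probe set. Another floor could only change which members were measured, and not the difference of one above both floors. Mmp13 ranged from -0.47 to -0.44, Adam8 from -0.39 to -0.34, Mmp12 from -0.31 to -0.26 and Mmp14 from -0.08 to -0.06, so no sign turned. With the threshold lowered to 0.32 on the log2 scale, 2 members were lower in place of 0. With a threshold of 2-fold, 154 of all genes were higher and 31 lower in place of 592 and 291. With a floor raised to the 99th percentile of these receptors (5.08 in WT, 4.90 in Nlrp6-/-), 4945 genes were measured instead of 9525. Of these, 325 were higher and 189 lower by 1.5-fold. Timp2 was then below both floors, as was Mmp10, and Mmp2 was below the WT floor. Without a floor, Mmp9 differed by 0.05. The mean over the members was -0.08 where the median was -0.19, since the mean takes in Timp1. No paired analysis was possible because each genotype had 1 array, and for the same reason no replicate could be left out.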
